A study of Rattus norvegicus with 69 samples.

Results

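This is an account of 9 genes of microglia, cytokine reception and the interferon response in the CA1 region of the rat hippocampus: Il6r, Il1rap, Cd14, Cx3cr1, Cx3cl1, C1qb, Ifitm3, Tap2 and Eif2ak2. The genes were chosen by their log2 signals in the groups and cohorts of these same arrays, and which of the differences between them decided the choice is not known. A probe set (a group of short probes for one transcript) was included wherever its annotated symbol was one of the 9. That gave 15 probe sets of the 8740 on the array that are not controls, and 9 of its 4736 different gene symbols. Every difference of these genes between groups, durations or cohorts is therefore given as a description with a standard error and no p-value.

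All 69 animals were male Fischer 344 rats aged 3 to 5 months, and each gave CA1 tissue for 1 Affymetrix RGU34A array. Sleep deprivation (SD) for 24 or 72 hours placed cage mates together in chambers with raised platforms standing in water, and novelty stress (NES) used the same chambers with a rubberized grid laid across the platforms so that the animals could sleep. Cohort 1 held 8 24SD, 8 72SD, 10 24NES, 6 72NES and 5 home cage (HC) animals, and cohort 2 held 8 24SD, 12 72SD and 12 HC animals. The SD and HC animals of cohort 1 had been trained on an active avoidance task beforehand, NES was run in cohort 1 only, and its 5 HC arrays are also the HC arrays of SD in that cohort, so the SD and NES differences share their controls. Because cage mates shared a chamber, p-values that treat animals as independent can be too small. The background signal was lower in cohort 2 by the study's methods, and cohort, training and background cannot be told apart. The study does not say that the NES animals were trained. In cohort 1, training and treatment therefore cannot be told apart in NES against HC or in SD against NES. The paper noted no effect of training on array measures, without showing the data.

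Microglia are the resident immune cells of the brain, and they watch neurons through paired signals such as the neuronal chemokine Cx3cl1 and its microglial receptor Cx3cr1. Cytokines reach cells through receptor complexes, and interferons switch on genes for antigen presentation and antiviral defence. In the healthy hippocampus these systems work at a low level and also take part in synapse remodelling and in the regulation of sleep.

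The array values are MAS5 signals on the log2 scale, where a difference of 1 is a doubling. Of the 15 probe sets, 12 were in the upper 50% by mean signal, and each of the 9 genes had its brightest probe set there. Signal levels were scaled alike, with array medians between 400.5 and 484.9. All 6 measured genes of a list for CA1 and pyramidal neurons were in the upper 50%, as were all 5 for oligodendrocytes and all 7 for astrocytes, and 3 dentate granule cell genes of 8 listed were measured, with 2 of them in the upper 50%. Of 34 listed microglial and macrophage genes 16 were measured and 7 were in the upper 50%, P2ry12 and Aif1 among them, and no signal of the list was at 0. Their summed signal ran from 21844 to 25148 in 24SD, 21708 to 28297 in 72SD, 16365 to 25314 in 24NES, 21951 to 25441 in 72NES and 23166 to 25075 in HC of cohort 1. In cohort 2 it ran from 25238 to 30732 in 24SD, 25409 to 29384 in 72SD and 23899 to 28305 in HC. In such bulk tissue, fewer cells of a type and less RNA per cell cannot be told apart.

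Il6r, the ligand-binding chain of the interleukin 6 receptor, was higher in SD at both durations and in both cohorts. In cohort 1 its log2 signal ran from 9.25 through a median of 9.44 to 9.68 in 24SD and from 9.07 through 9.23 to 9.48 in 72SD, against 9.19, 8.94, 8.67, 9.24 and 9.14 in the 5 HC animals. Every 24SD animal of cohort 1 was above every HC animal, and 8 of 8 72SD animals were above the HC mean. How many of the 8740 probe sets separate in this way from 5 HC animals was not counted, here or for the genes below. In cohort 2 the values were 9.23, 9.39 and 9.78 (lowest, median and highest) in 24SD, 9.03, 9.47 and 9.72 in 72SD, and 8.48, 9.24 and 9.68 in HC. The groups overlapped there, with 8 of 8 24SD and 11 of 12 72SD animals above the HC mean. Over both cohorts the difference from HC was 0.34 ± 0.08 (SE) in 24SD, a 26.5% higher signal, and 0.26 ± 0.07 in 72SD.

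In NES the same probe set of Il6r ran from 8.75 through 9.32 to 9.80 at 24 hours and from 8.75 through 9.21 to 9.50 at 72 hours. Of these animals, 9 of 10 and 5 of 6 were above the HC mean, and the groups overlapped with HC. The differences were 0.26 ± 0.15 in 24NES and 0.14 ± 0.16 in 72NES, and SD exceeded NES by 0.17 ± 0.11 at 24 hours and by 0.08 ± 0.12 at 72 hours. The 72SD and 24SD animals differed in Il6r by -0.08 ± 0.08 (95% interval -0.23 to 0.07). The SD difference was 0.32 ± 0.11 in cohort 1 and 0.27 ± 0.08 in cohort 2, and these 2 values differed by 0.05 ± 0.14, which turned to -0.04 without HC animal 3.

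Il1rap, the accessory chain that interleukin 1 receptors need to signal, was read by 2 probe sets that did not move alike. The brighter one, U48592_g_at, ran from 8.70 through 9.17 to 9.42 in 24SD, 8.59 through 9.16 to 9.52 in 72SD, 8.96 through 9.26 to 9.97 in 24NES and 8.38 through 9.02 to 9.41 in 72NES of cohort 1, against 8.49, 8.84, 8.67, 8.79 and 9.10 in HC. All 10 24NES animals were above the HC mean and 8 of them above the highest HC animal. In cohort 2 the values were 9.39, 10.01 and 10.28 in 24SD, 9.21, 9.84 and 10.22 in 72SD and 9.02, 9.59 and 9.99 in HC. Most SD animals were above the HC mean there, and HC itself was lower in cohort 1 than in cohort 2 by 0.77 ± 0.17. The differences from HC were 0.29 ± 0.11 in 24SD, 0.24 ± 0.10 in 72SD, 0.60 ± 0.19 in 24NES and 0.16 ± 0.21 in 72NES. The second probe set, U48592_at, gave -0.06 ± 0.15, -0.19 ± 0.14, -0.25 ± 0.24 and -0.10 ± 0.26 in the same order. The 2 probe sets of Il1rap correlated at r = 0.25 (Spearman rho = 0.31) between animals of one group and cohort, with a permutation p for r of 0.077 after adjustment over 7 such pairs.

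**Figure D1:**
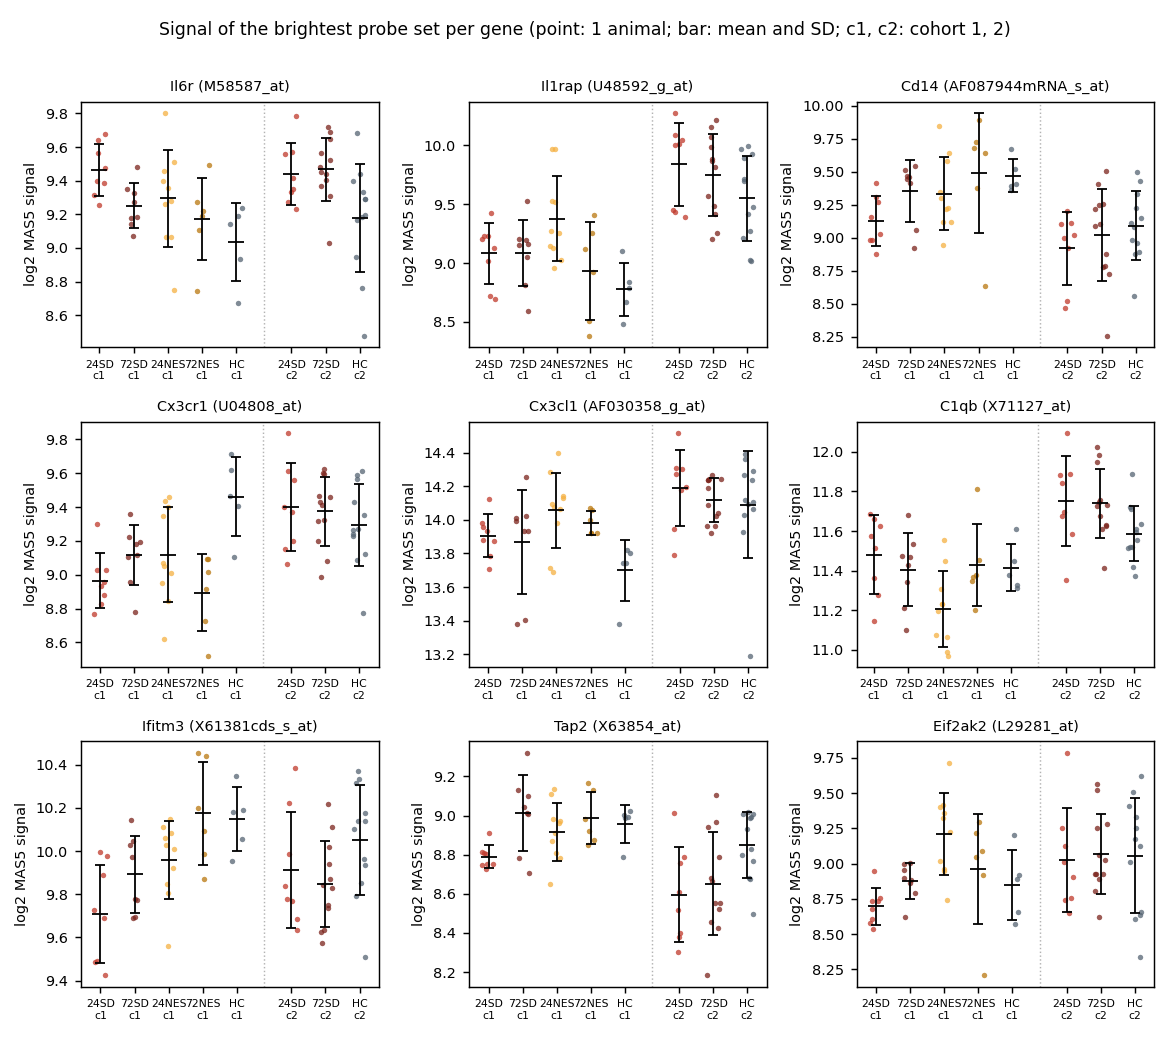
Log2 MAS5 signal of the brightest probe set of each gene in every animal, by group and cohort (c1, c2), with the mean and the standard deviation (bars). The 24SD animals of cohort 1 lie above all 5 HC animals for Il6r, and the 72NES animals lie below all 5 for Cx3cr1. How many other probe sets separate likewise was not counted.

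Cd14, the co-receptor that hands bacterial lipopolysaccharide to Toll-like receptor 4, was lower in 24SD. Its brighter probe set, AF087944mRNA_s_at, ran from 8.87 through 9.09 to 9.41 in 24SD, 8.92 through 9.45 to 9.54 in 72SD, 8.95 through 9.26 to 9.85 in 24NES and 8.63 through 9.66 to 9.90 in 72NES of cohort 1, against 9.41, 9.40, 9.52, 9.67 and 9.36 in HC. All 8 24SD animals were below the HC mean and 7 of them below the lowest HC animal. In cohort 2 the values were 8.47, 9.01 and 9.21 in 24SD, 8.26, 9.10 and 9.51 in 72SD and 8.56, 9.10 and 9.50 in HC, and the groups overlapped. By cohort the SD difference was -0.23 ± 0.14 in cohort 1 and -0.12 ± 0.10 in cohort 2. The differences over both were -0.24 ± 0.09 in 24SD, -0.08 ± 0.09 in 72SD, -0.14 ± 0.17 in 24NES and 0.02 ± 0.19 in 72NES. The dimmer probe set, AF087943_s_at, had the same sign in SD with larger errors, at -0.27 ± 0.14 in 24SD and -0.18 ± 0.14 in 72SD, and gave -0.48 ± 0.34 in 24NES and -0.01 ± 0.37 in 72NES. On this probe set, however, 5 of 8 24SD animals of cohort 1 were above the HC mean. Between animals of one group and cohort it correlated with the brighter one at only r = 0.20 (rho = 0.15).

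Cx3cr1, the fractalkine receptor that marks microglia in brain, differed between the cohorts. In cohort 1 it ran from 8.77 through 8.95 to 9.30 in 24SD, 8.78 through 9.15 to 9.36 in 72SD, 8.62 through 9.06 to 9.46 in 24NES and 8.52 through 8.97 to 9.09 in 72NES, against 9.47, 9.72, 9.10, 9.62 and 9.40 in HC. All 16 SD and all 16 NES animals were below the mean of the 5 HC animals, and the 6 72NES animals were below the lowest of them. In cohort 2 the values were 9.07, 9.39 and 9.84 in 24SD, 8.99, 9.42 and 9.63 in 72SD and 8.77, 9.27 and 9.61 in HC. There 14 of 20 SD animals were above the HC mean.

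The mean SD difference of Cx3cr1 was thus -0.42 ± 0.11 in cohort 1 and 0.09 ± 0.08 in cohort 2. These 2 values differed by -0.51 ± 0.14 (95% interval -0.78 to -0.24). This is a description, as the gene may have been chosen by these same values. The pooled SD differences were -0.12 ± 0.09 at 24 hours and -0.05 ± 0.08 at 72 hours, and both were positive in cohort 2 alone, at 0.11 and 0.08. NES gave -0.34 ± 0.15 at 24 hours and -0.57 ± 0.16 at 72 hours, and the 72-hour value ranged from -0.50 to -0.66 when each HC animal was left out.

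Of blood genes, 2 for beta-globin chains of hemoglobin differed between the cohorts in their SD difference, Hbb by -0.89 ± 0.20 and Hbb-b1 by -0.73 ± 0.16 (limma adjusted p = 0.0298 and 0.0291). Their probe sets read closely related transcripts and may share signal. Alas2, the heme synthesis enzyme of red cells, differed by -0.37 ± 0.17 (adjusted p = 0.554). These tests were added after the values were seen. The summed signal of the 3 measured genes of 6 on a blood list, Hbb, Hbb-b1 and Alas2, ran from 7664 to 15475 in 24SD, 7317 to 14577 in 72SD, 6280 to 15824 in 24NES and 9224 to 14707 in 72NES, against 15078 to 17590 in HC of cohort 1, and none of these genes was at 0. In cohort 2 it ran from 11867 to 18707 in 24SD and 9707 to 17277 in 72SD, against 9088 to 17175 in HC. The median difference of the 3 genes in SD was -0.45 in cohort 1 and 0.28 in cohort 2, and none was called over both cohorts. Among animals of one group and cohort, Cx3cr1 correlated with the 3 genes at r between 0.03 and 0.09. Their part in the cohort difference was not tested. The other 16 microglial genes had a median SD difference of -0.05 in cohort 1 and -0.07 in cohort 2.

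Cx3cl1, the membrane-bound chemokine that neurons present to Cx3cr1, was read by 3 probe sets that disagreed in sign. AF030358_g_at ran from 13.71 through 13.91 to 14.13 in 24SD, 13.38 through 13.97 to 14.26 in 72SD, 13.69 through 14.08 to 14.40 in 24NES and 13.92 through 13.96 to 14.07 in 72NES of cohort 1, against 13.80, 13.38, 13.74, 13.75 and 13.82 in HC. All 6 72NES animals were above the highest HC animal, as were 8 of 10 24NES and 12 of 16 SD animals. In cohort 2 the values were 13.79, 14.23 and 14.52 in 24SD, 13.92, 14.14 and 14.27 in 72SD and 13.19, 14.12 and 14.40 in HC, with 12 of 20 SD animals above the HC mean. The differences were 0.13 ± 0.08 in 24SD, 0.07 ± 0.08 in 72SD, 0.36 ± 0.11 in 24NES and 0.28 ± 0.12 in 72NES.

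The probe set rc_AA800602_s_at of Cx3cl1 stood below HC in 24SD, 72SD and 24NES, where AF030358_g_at stood above it, and at the HC level in 72NES. In cohort 1 it ran from 12.93 through 13.56 to 13.77 in 24SD, 13.26 through 13.49 to 13.88 in 72SD, 13.15 through 13.36 to 13.72 in 24NES and 13.31 through 13.81 to 13.90 in 72NES, against 13.67, 13.80, 13.65, 13.82 and 13.78 in HC. All 10 24NES animals were below the HC mean, 9 of them below the lowest HC animal, while 4 of 6 72NES animals were above the HC mean. In cohort 2 it was 12.50, 13.18 and 13.28 in 24SD, 12.79, 13.34 and 13.63 in 72SD and 13.11, 13.31 and 13.84 in HC, and all 8 24SD animals were below the HC mean. The differences were -0.28 ± 0.08 in 24SD, -0.12 ± 0.08 in 72SD, -0.34 ± 0.11 in 24NES and -0.02 ± 0.12 in 72NES. The third Cx3cl1 probe set, AF030358_at, stayed within -0.13 and -0.04 in the 4 contrasts.

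The same opposition held between animals that had been treated alike. After the mean of each group and cohort was removed, the Cx3cl1 probe sets AF030358_g_at and rc_AA800602_s_at correlated at r = -0.47 (rho = -0.55) over 69 animals, with a permutation p adjusted over 7 pairs of 0.00028, and at r = -0.42 without the 2 animals farthest from the median. A ratio of the 5′ to the 3′ control probe set of beta-actin, a measure of how far the labelled RNA reaches towards the 5′ end, moved with both. It correlated with rc_AA800602_s_at at r = 0.51 (rho = 0.55), where the permutation p of 1e-05 is the smallest that 100000 permutations can give and 0.0006 after adjustment over 60 relations. With AF030358_g_at it correlated at r = -0.35 (rho = -0.32, adjusted p = 0.0291). Within the cohorts these values were 0.33 and 0.74 for the first and -0.25 and -0.48 for the second, cohort 1 before cohort 2.

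The median log2 beta-actin ratio was -0.48 in 24SD, -0.29 in 72SD, -0.42 in 24NES, -0.29 in 72NES and -0.32 in HC of cohort 1, and -0.48, -0.48 and -0.47 in 24SD, 72SD and HC of cohort 2. With the ratio as a covariate, a setting chosen after seeing the data, rc_AA800602_s_at of Cx3cl1 stood at -0.18 ± 0.07 in 24SD and -0.32 ± 0.12 in 24NES, and AF030358_g_at at 0.07 ± 0.08 and 0.35 ± 0.12. The 3 probe sets thus gave no common direction for Cx3cl1.

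**Figure D2:**
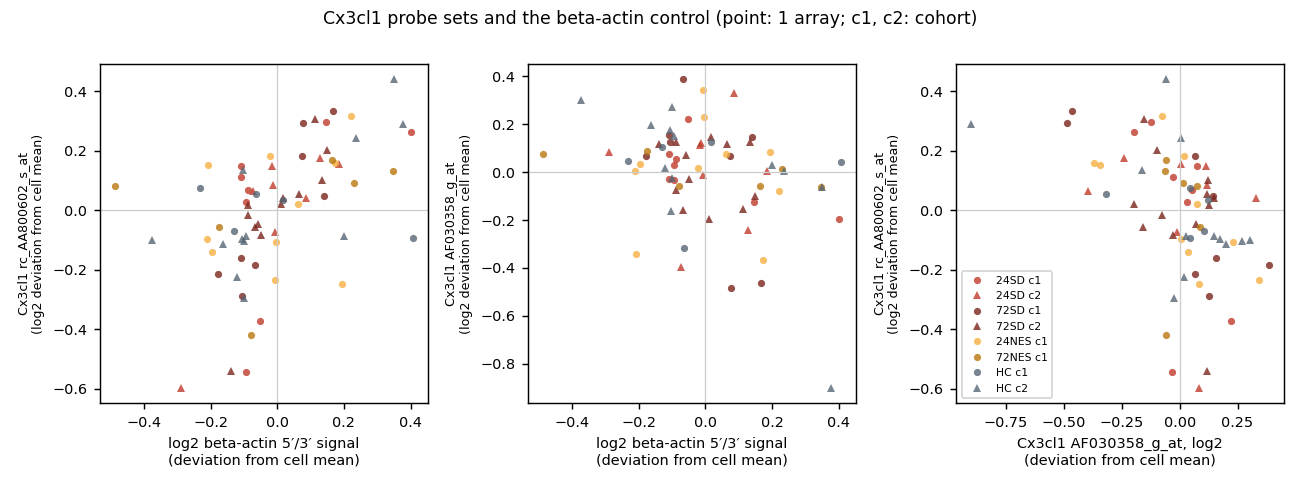
Deviation of 2 Cx3cl1 probe sets from the mean of their group and cohort, against the deviation of the beta-actin 5′/3′ log2 ratio (left and middle) and against each other (right); each point is 1 of 69 animals. The left cloud climbs (r = 0.51), the middle one descends (r = -0.35) and the right one descends (r = -0.47).

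C1qb encodes a chain of C1q, the first component of the classical complement pathway, which microglia supply in brain and which tags synapses. It was higher in SD than in HC and lower in 24NES. Its brighter probe set, X71127_at, ran from 11.15 through 11.55 to 11.69 in 24SD, 11.10 through 11.45 to 11.68 in 72SD, 10.97 through 11.21 to 11.55 in 24NES and 11.20 through 11.37 to 11.81 in 72NES of cohort 1, against 11.31, 11.45, 11.61, 11.38 and 11.33 in HC. Each of these groups overlapped with HC. C1qb in cohort 2 was 11.35, 11.77 and 12.10 in 24SD, 11.41, 11.73 and 12.02 in 72SD and 11.37, 11.57 and 11.89 in HC. The differences were 0.14 ± 0.06 in 24SD, 0.10 ± 0.06 in 72SD, -0.21 ± 0.11 in 24NES and 0.01 ± 0.12 in 72NES, and 24SD exceeded 24NES by 0.27 ± 0.09. By cohort, SD differed from HC by 0.03 ± 0.09 in cohort 1 and 0.16 ± 0.07 in cohort 2. The second C1qb probe set, X71127_g_at, gave 0.15 ± 0.07, 0.11 ± 0.07, -0.19 ± 0.11 and -0.08 ± 0.12 in the same order, and correlated with the first at r = 0.64 (rho = 0.60, permutation p adjusted over 7 pairs 7e-05). Between animals of one group and cohort, C1qb correlated with the 16 microglial genes of the list at r from -0.45 to 0.43 with a median of -0.01, over 69 animals that share arrays and scaling, and the highest value was that of C1qc, another C1q chain.

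Of the 9 genes, 3 are induced by interferon: Ifitm3, a membrane protein that blocks the entry of viruses, Tap2, which carries peptides into the endoplasmic reticulum for loading onto class I molecules, and Eif2ak2, a kinase (PKR) that senses double-stranded RNA and halts translation. Their promoters are shown because genes of this kind often carry an element through which interferon acts. The interferon-stimulated response element was searched by its core GAAANNGAAA on both strands, as the single motif, in windows of 300 bases around each start in RefSeq (build GRCr8). It was found in 1312 of 33469 windows (3.92%). Printed are the 80 bases before the start, 5′ to 3′ in the direction of the gene, with the core in capitals.
Eif2ak2 (chr6:21941074-21941153, plus strand): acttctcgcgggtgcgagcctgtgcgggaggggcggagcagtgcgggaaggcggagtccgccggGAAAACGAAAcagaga
Ifitm3 (chr1:205541759-205541838, minus strand): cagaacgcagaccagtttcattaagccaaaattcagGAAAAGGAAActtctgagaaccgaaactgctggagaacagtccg
Tap2 (chr20:4652297-4652376, minus strand): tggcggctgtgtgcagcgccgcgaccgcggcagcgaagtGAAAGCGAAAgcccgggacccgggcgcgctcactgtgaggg

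The core ends 7, 35 and 32 bases before the annotated start of Eif2ak2, Ifitm3 and Tap2. The same 80 bases hold the core in 1.04% of all promoters in the table. All 9 genes had an entry there, and of the other 6 the letters were also found in Il1rap and not in the windows of Il6r, Cd14, Cx3cr1, Cx3cl1 and C1qb. A match to these letters is a description of the sequence and no measurement of binding.

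The signals of these 3 interferon-inducible genes did not move as one. Ifitm3 ran from 9.42 through 9.71 to 9.99 in 24SD, 9.69 through 9.87 to 10.15 in 72SD, 9.56 through 10.02 to 10.15 in 24NES and 9.87 through 10.15 to 10.46 in 72NES of cohort 1, against 10.35, 10.19, 10.06, 10.18 and 9.95 in HC. All 16 SD animals were below the HC mean, and the 72NES animals lay on both sides of it. The cohort 2 values were 9.64, 9.81 and 10.38 in 24SD, 9.57, 9.83 and 10.22 in 72SD and 9.51, 10.12 and 10.37 in HC. The differences of Ifitm3 were -0.26 ± 0.08 in 24SD, -0.21 ± 0.08 in 72SD, -0.19 ± 0.11 in 24NES and 0.03 ± 0.13 in 72NES. SD was lower than NES by 0.25 ± 0.10 at 24 hours and 0.28 ± 0.11 at 72 hours. By cohort, the SD difference was -0.35 ± 0.11 in cohort 1 and -0.17 ± 0.08 in cohort 2, which differed by -0.17 ± 0.14.

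Tap2 ran from 8.73 through 8.78 to 8.91 in 24SD, 8.71 through 9.03 to 9.32 in 72SD, 8.65 through 8.94 to 9.14 in 24NES and 8.85 through 8.95 to 9.17 in 72NES of cohort 1, against 8.99, 9.03, 8.99, 8.79 and 9.00 in HC. The 24SD animals were close together (standard deviation 0.059) and overlapped with HC through 1 HC animal, number 4, at 8.79. Cohort 2 gave 8.30, 8.56 and 9.01 in 24SD, 8.18, 8.61 and 9.11 in 72SD and 8.50, 8.88 and 9.02 in HC. The differences of Tap2 were -0.24 ± 0.07 in 24SD, -0.11 ± 0.07 in 72SD, -0.04 ± 0.09 in 24NES and 0.03 ± 0.10 in 72NES. By cohort, SD differed from HC by -0.06 ± 0.10 in cohort 1 and -0.23 ± 0.07 in cohort 2. At 72 hours alone the signs were opposite, at 0.06 ± 0.11 in cohort 1 and -0.20 ± 0.08 in cohort 2. Its transporter partner Tap1 stood at 0.02 ± 0.08 in 24SD and 0.04 ± 0.08 in 72SD.

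Eif2ak2 was higher in 24NES than in HC and in 24SD of cohort 1. Its brighter probe set, L29281_at, ran from 8.54 through 8.71 to 8.95 in 24SD, 8.62 through 8.89 to 9.01 in 72SD, 8.75 through 9.28 to 9.71 in 24NES and 8.21 through 9.07 to 9.29 in 72NES, against 9.21, 8.92, 8.57, 8.89 and 8.66 in HC of cohort 1. Of the 10 24NES animals 9 were above the HC mean, and 7 of 8 24SD animals were below it. The values of cohort 2 were 8.65, 8.96 and 9.79 in 24SD, 8.62, 8.98 and 9.56 in 72SD and 8.34, 9.15 and 9.62 in HC. The differences of Eif2ak2 were -0.08 ± 0.10 in 24SD, 0.02 ± 0.10 in 72SD, 0.36 ± 0.17 in 24NES and 0.11 ± 0.19 in 72NES. Set against each other, 24SD was 0.51 ± 0.12 below 24NES, and the difference 72SD minus 72NES was -0.09 ± 0.14. The other Eif2ak2 probe set, rc_AI013987_s_at, was dim, with a standard deviation of 0.848 between animals of one group. It gave 0.10 ± 0.31 in 24SD, -0.20 ± 0.29 in 72SD, 1.09 ± 0.41 in 24NES and -0.15 ± 0.45 in 72NES. Between animals of one group and cohort it correlated with L29281_at at r = 0.15 (rho = 0.14).

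**Figure D3:**
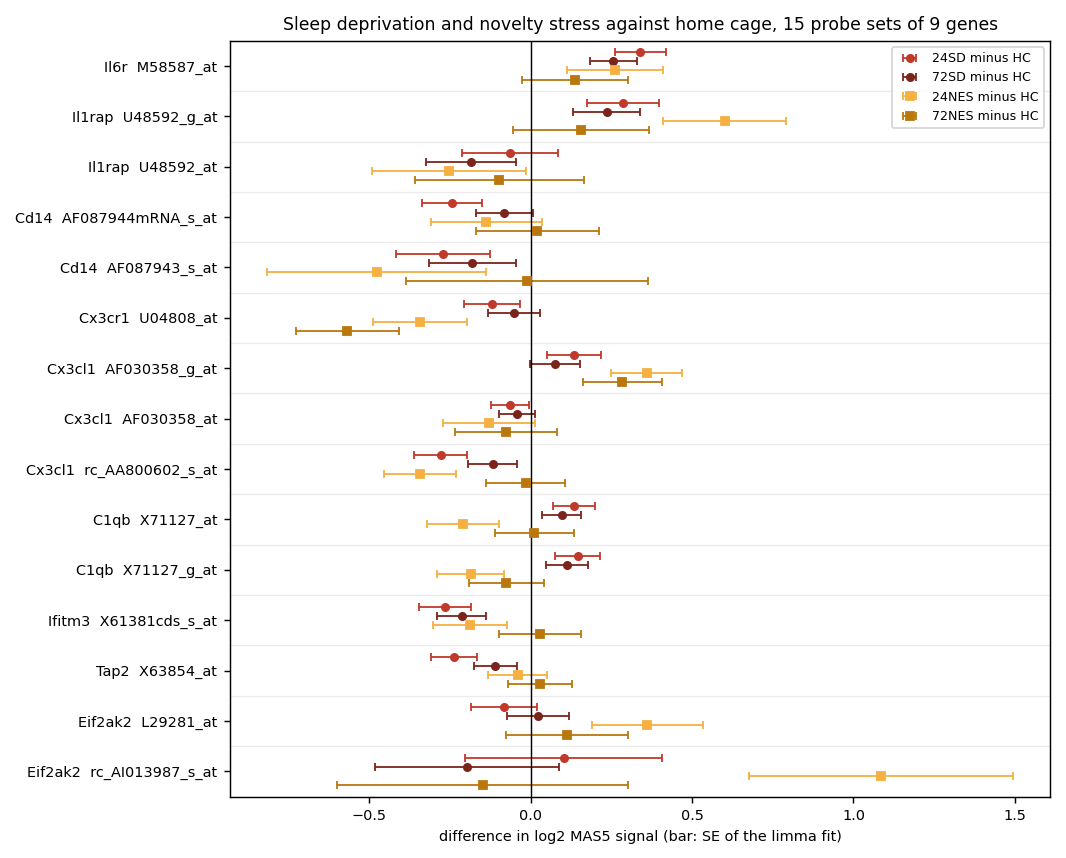
Log2 difference from HC of each of the 15 probe sets in 24SD and 72SD (both cohorts, cohort in the model) and in 24NES and 72NES (cohort 1), with SE. SD and NES share the 5 HC arrays of cohort 1. Il6r lies to the right of 0 in all 4 contrasts, while the Cx3cl1 and Il1rap probe sets lie on both sides of it.

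Over the whole array, the F-test of SD against HC called 10 of 8740 probe sets at an adjusted p under 0.05 (0.114%). Of the single durations, 24SD called 0.206% of probe sets and 72SD called 0.0229%. At an unadjusted p of at most 0.05, 4.03% of probe sets were higher in SD and 6.27% were lower. The genes were chosen with results of these arrays in view. Which of their 15 probe sets passed is therefore not given, for these tests or for the contrasts between groups, durations and cohorts below. Nothing is read from the counts.

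For NES the limma F-test called 0% at an adjusted p under 0.05. At an unadjusted p of at most 0.05, it had 4.93% higher and 3.7% lower. SD against NES at matched durations called 0.0114% at an adjusted p under 0.05.

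The contrasts between durations and between cohorts rest on the same group and cohort means, and they too were fitted over all probe sets. For 72SD against 24SD, limma called 0 probe sets (0%) at an adjusted p under 0.05. At an unadjusted p of at most 0.05 it called 359 (4.11%). As a description, rc_AA800602_s_at of Cx3cl1 was 0.16 ± 0.08 higher in 72SD. For 72NES against 24NES limma called 0 probe sets (0%) after adjustment and 652 (7.46%) before it. In that contrast Cx3cl1 rc_AA800602_s_at stood at 0.33 ± 0.10 and Eif2ak2 rc_AI013987_s_at at -1.24 ± 0.39. Il1rap U48592_g_at stood at -0.44 ± 0.18 and C1qb X71127_at at 0.22 ± 0.10. The difference of the SD effect between cohorts called 16 probe sets (0.183%) after adjustment and 7.93% before it.

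Whether the genes moved together was asked between animals of the same group and cohort, with the mean of each group and cohort removed. Of the 36 pairs of genes, taken by their brightest probe sets, 4 passed an adjusted permutation p of 0.05 by Pearson's r and 2 by Spearman's rho. C1qb and Cx3cl1 correlated at r = -0.42 (adjusted permutation p = 0.0133; rho = -0.43, adjusted p = 0.00702), with r = -0.53 in cohort 1 and -0.31 in cohort 2, and r = -0.45 without the 2 animals farthest from the median. With rc_AA800602_s_at for Cx3cl1 the same value was 0.45 (adjusted p = 0.014), and with AF030358_at it was 0.04, so the sign of this relation followed the probe set. Eif2ak2 and Il6r correlated at r = 0.44 (adjusted permutation p = 0.0191; rho = 0.35, adjusted p = 0.088), at 0.75 in cohort 1 and 0.24 in cohort 2, and at -0.15 with the other Eif2ak2 probe set.

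Cd14 and Eif2ak2 correlated at r = -0.41 (adjusted permutation p = 0.0304; rho = -0.46, adjusted p = 0.00702), at -0.25 in cohort 1 and -0.52 in cohort 2, and at -0.07 with the other Cd14 probe set. C1qb and Eif2ak2 correlated at r = -0.35 (adjusted permutation p = 0.0498; rho = -0.30, adjusted p = 0.103), at -0.28 in cohort 1 and -0.42 in cohort 2. Without the 2 farthest animals r was 0.43 for Eif2ak2 with Il6r, -0.40 for Cd14 with Eif2ak2 and -0.33 for C1qb with Eif2ak2. With each array centred on its median, r was -0.24 for C1qb with Cx3cl1 and -0.21 for C1qb with Eif2ak2. The other 2 pairs then stood at 0.46 for Eif2ak2 with Il6r and -0.48 for Cd14 with Eif2ak2. Cx3cl1 and its receptor Cx3cr1 correlated at r = -0.20 (adjusted permutation p = 0.442). The pair C1qb and Ifitm3 had a pooled r of 0.05 but 0.63 in cohort 1 and -0.51 in cohort 2. That difference was not tested.

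**Figure D4:**
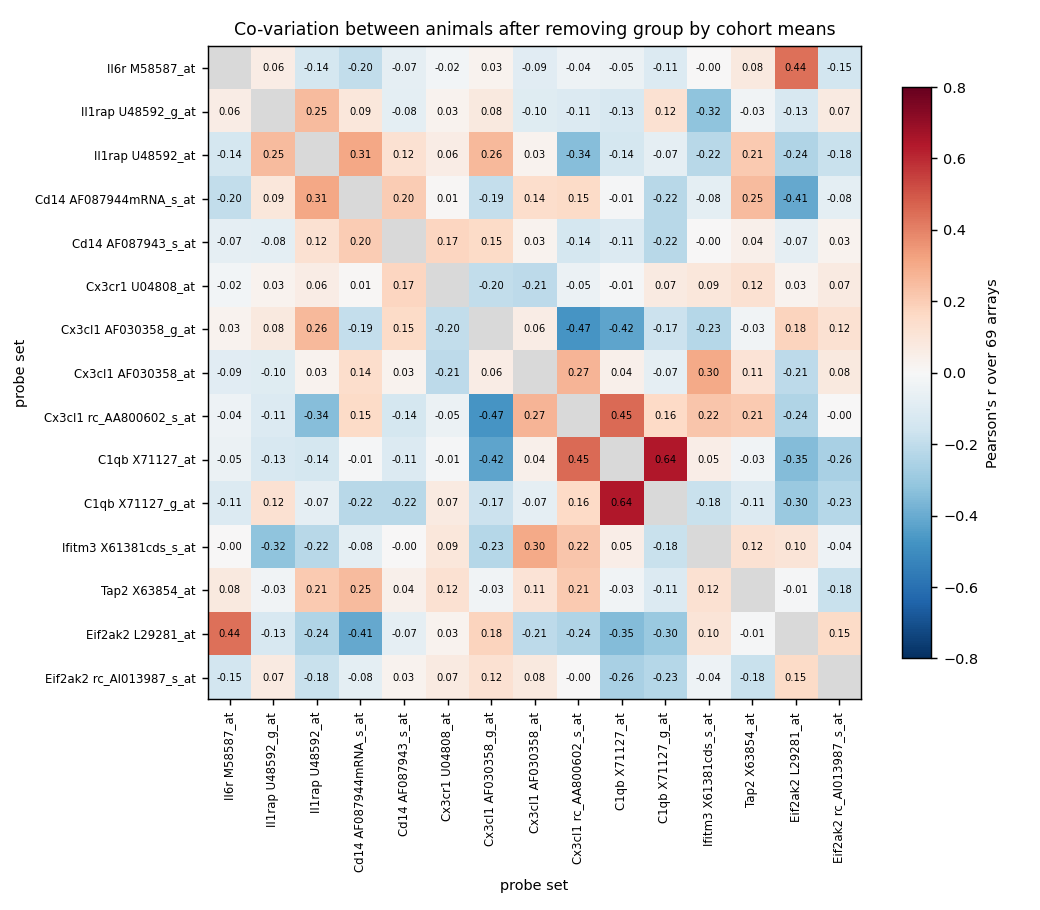
Pearson's r between the 15 probe sets of the 9 genes over 69 animals after the mean of each group and cohort was removed, red for positive and blue for negative values. They run from -0.47 for 2 Cx3cl1 probe sets to 0.64 for the 2 of C1qb.

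The standard deviation within groups, for the brightest probe set, was between 0.183 for C1qb and 0.336 for Il1rap, beside a median of 0.335 over all probe sets. As a description, the 3 genes of other names whose deviations were most like those of each gene were found among about as many probe sets in each case, from 3677 to 3679 in the upper 50% of signal, over 69 animals that share arrays and scaling. For Il6r these were Cand1, Gne and Me1 (r from 0.62 to 0.64), and for Il1rap they were Btg1, Map2k1 and Neurod1 (0.61 to 0.64). For Cx3cl1 they were Cnksr2, Fkbp1a and Dnaja2 (0.73 to 0.74), and for Cx3cr1, which had the lowest values, Ywhaq, Slc28a1 and Zfp386 (0.39 to 0.42). For Cd14 they were Slc20a2, Chrna7 and Sprr1a (0.57 to 0.62), for C1qb Abhd14b, Taf10 and Sparc (0.55 to 0.59), and for Eif2ak2 Ptn, Maob and Rcn2 (0.62 to 0.67).

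For Ifitm3 they were Car4, Scd and Lipa (0.55 to 0.60), with Car4 at 0.20 in cohort 1 and 0.86 in cohort 2. For Tap2 they were Chrng, Timp1 and Psme2 (0.45 to 0.46). Psme2, a proteasome activator that helps to make the peptides Tap2 carries, was at -0.04 in cohort 1 and 0.74 in cohort 2. Neurod1, also on the dentate granule cell list, followed Il1rap at 0.34 in cohort 1 and 0.84 in cohort 2. Its own differences were 0.36 ± 0.10 in 24SD, 0.17 ± 0.09 in 72SD, 0.50 ± 0.15 in 24NES and 0.32 ± 0.16 in 72NES. Of the 3 measured genes of that list, 1 was higher and 2 lower in SD, and likewise in NES. Their median r with Il1rap was -0.07, and the highest was the 0.61 of Neurod1. The part of dentate tissue in the Il1rap differences was not tested.

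Other genes of the same pathways are given by counts, beside all probe sets, of which 43.6% were above 0 in SD with a median of -0.02, and 49.2% in NES with a median of 0.00. In each list below, no gene was called at an adjusted p under 0.05 by limma in SD or in NES. Of 16 measured microglial and macrophage genes, 4 were higher and 12 lower in SD (median -0.06), with Cd37, a leukocyte tetraspanin, the 1 at an unadjusted p of at most 0.05 (-0.24 ± 0.06 in 24SD). In NES 8 were higher and 8 lower. Itgam, the CD11b integrin chain, stood at -0.53 ± 0.26 in 24SD and -0.42 ± 0.61 in 24NES, and Cyba, a subunit of the phagocyte oxidase, at 0.10 ± 0.20 in 24SD and 0.29 ± 0.18 in 72SD.

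Around Il6r, 9 of 15 measured genes of the interleukin 6 and gp130 pathway were higher and 6 lower in SD (median 0.04), and likewise 9 and 6 in NES. The signalling subunit Il6st (gp130) stood at 0.02 ± 0.08 in 24SD and -0.03 ± 0.08 in 72SD, Socs2, a feedback inhibitor, at -0.51 ± 0.13 and -0.23 ± 0.12, and Jak3 at 0.51 ± 0.18 and 0.45 ± 0.17. Stat5a, a transcription factor that cytokine receptors activate, stood at -0.56 ± 0.38 and -0.21 ± 0.36. Il6 itself was dim, at -0.73 ± 0.31 and -0.03 ± 0.29. Around Il1rap and Cd14, 7 of 17 measured genes of the interleukin 1, Toll-like receptor and TNF pathway were higher and 10 lower in SD, and 10 higher and 7 lower in NES. The cytokine Il1b stood at -0.27 ± 0.14 in 24SD, -0.26 ± 0.13 in 72SD, -0.09 ± 0.19 in 24NES and -0.33 ± 0.21 in 72NES.

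Of 16 measured chemokines, their receptors and enzymes that shed Cx3cl1, 5 were higher and 11 lower in SD, and 8 and 8 in NES. Ccl3, a chemokine that draws myeloid cells, stood at 0.61 ± 0.28 in 24SD, 0.32 ± 0.26 in 72SD, 1.19 ± 0.27 in 24NES and 0.50 ± 0.29 in 72NES, from one of the dimmest probe sets of the list. Of 12 measured complement genes beside C1qb, 3 were higher and 9 lower in SD (median -0.08), and 6 and 6 in NES, with C3 at -0.33 ± 0.20 in 24SD and -0.27 ± 0.29 in 24NES. Of 25 measured genes of the interferon response and antigen presentation, 7 were higher and 18 lower in SD (median -0.06), and 10 and 15 in NES. RT1-A3, of the class I antigen-presenting genes, stood at 0.62 ± 0.34 in 24SD, 0.37 ± 0.32 in 72SD, -0.19 ± 0.59 in 24NES and -0.14 ± 0.65 in 72NES, from a dim probe set. Irf7, which amplifies the interferon response, stood at -0.35 ± 0.16 in 24SD, -0.30 ± 0.15 in 72SD, -0.48 ± 0.26 in 24NES and -0.31 ± 0.29 in 72NES.

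Of 10 measured eIF2 kinases and their partners, 3 were higher and 7 lower in SD, and 5 and 5 in NES. Eif2ak3 (PERK), the eIF2 kinase of the endoplasmic reticulum, was higher in each contrast, at 0.39 ± 0.15 in 24SD, 0.16 ± 0.14 in 72SD, 0.88 ± 0.29 in 24NES and 0.56 ± 0.32 in 72NES. Ppp1r15a, which directs a phosphatase to eIF2, stood at -0.09 ± 0.07 in 24SD and -0.14 ± 0.06 in 72SD. Eif2ak1, the heme-regulated kinase, stood at -0.06 ± 0.24 in 24SD and 0.06 ± 0.40 in 24NES.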

How the data were processed

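One CA1 RNA sample per rat was hybridised to an Affymetrix RGU34A array, 69 arrays in all. The deposited values are intensity signals, 1 per probe set on a linear scale, which the authors made with MAS5 (version not given in the sources used here) with each array scaled as a whole (trimmed means from 1501.6 to 1502.1). The number of arrays limits the precision. Of 8799 probe sets, 59 controls were left out. Of the remaining 8740, 7006 carry 1 gene symbol in the platform annotation, 308 several and 1426 none. Before log2 any signal under 1 was raised to 1; none of the 15 probe sets described held a 0.

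Groups and cohorts came from the sample labels. Differences were fitted in R 4.3.3 with limma 3.58.1 (lmFit, eBayes) over all 8740 probe sets and adjusted by Benjamini-Hochberg, with a threshold of 0.05. SD used 53 arrays with cohort as a term, NES used 21 and SD against NES used 37 arrays of cohort 1, and the cohort comparison used 53. Intervals are 95% normal intervals. Correlations between animals used log2 signals less the mean of their group and cohort, tested 2-sided with 100000 permutations within groups. The steps were tested on simulated data. The genes, the gene lists and the tests were chosen with earlier results of these data known, so group and cohort differences of the 9 genes carry no p-value. Named are every probe set of the 9 genes, the 3 most similar genes of each, and up to 4 genes of each list, taken in order of the size of their mean SD difference, besides Il6st, Tap1, C1qc, P2ry12 and Aif1, named after their values were seen. Alternatives were quantile normalization, median centring, a floor of 50, the upper 50% of signals, other eBayes settings, single cohorts, no cohort term, the 1-way test of the methods, other probe sets, left-out animals and the beta-actin ratio. Promoters came from a RefSeq table (GRCr8).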

Additional observations from a re-analysis of the deposited data

Results flagged for a closer look

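Of 90 sets of values (a probe set in one group and cohort with 4 to 10 animals), 6 held an animal whose gap to its nearest neighbour was above Dixon's 95% critical value, and chance gives about 1 in 20. Values are log2 signals. Cd14 AF087943_s_at was 5.873 in 24NES animal 64, beside 7.645 to 8.864 in the other 24NES animals. Cx3cl1 AF030358_at was 12.528 in 24SD animal 18 of cohort 1, beside 12.934 to 13.299, and Cx3cl1 rc_AA800602_s_at was 12.504 in 24SD animal 35 of cohort 2, beside 13.029 to 13.276. Cx3cl1 AF030358_g_at was 13.381 in HC animal 2 of cohort 1, beside 13.743 to 13.823. Eif2ak2 L29281_at was 8.208 in 72NES animal 73, beside 8.923 to 9.294. Tap2 X63854_at was 8.786 in HC animal 4 of cohort 1, beside 8.987 to 9.025. Each of the 6 values is the lowest of its own group within its cohort.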

How the results depend on the processing

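The 135 differences of the 15 probe sets took 1971 values under the alternatives. Of these, 42 (from 28 differences, each of at most 0.20 in size) had the other sign, 12 of them between durations or between cohorts, and 2 (Cx3cr1 at -0.50 in 24SD and -0.35 in 72SD, in cohort 1 alone) moved by more than the spread between animals. Many of the differences are smaller than that spread and could vanish without counting as moved. The count of probe sets called in SD against HC (10) was 18 with arrays centred on their median, 4 with the beta-actin ratio as a covariate (chosen after seeing the data), 1 without the cohort term, 0 in cohort 2 alone and 178 by the methods' 1-way test with values over 2 standard deviations removed, and 9 to 13 when single animals were left out. NES against HC called 0 to 1 and 72NES against 24NES 0 to 1 when single animals were left out. SD against NES (1) was 0 after quantile normalization, 2 with a floor of 50, 2 with a trend in eBayes and 0 to 1 with animals left out. The cohort difference (16) was 10 with median centring and 6 to 18 with animals left out. The 4 correlated pairs were 2 with median centring, 0 in cohort 2 alone, 2 with the other probe set of C1qb, of Cd14 or AF030358_at of Cx3cl1, 1 with the other of Eif2ak2 and 3 to 4 with animals left out. The cause was not tested.

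Among single probe sets, 72SD minus 24SD without the cohort term turned to -0.02 for Cx3cl1 AF030358_at, 0.02 for Il1rap U48592_g_at and 0.03 for C1qb X71127_g_at, in cohort 1 alone to 0.01 for Il1rap U48592_g_at, and in cohort 2 alone to 0.03 for Il6r, -0.03 for Cx3cr1, 0.02 for Il1rap U48592_at, -0.07 for Ifitm3 and 0.01 for C1qb X71127_g_at. With animals left out, the SD difference between cohorts ran from -0.12 to 0.03 for Eif2ak2 L29281_at and -0.01 to 0.15 for Il1rap U48592_g_at, turning sign without HC animal 1, and from -0.04 to 0.10 for Il6r, turning without HC animal 3. The r of C1qb and Cx3cl1 turned to 0.04 and 0.45 with the other Cx3cl1 probe sets, and that of Eif2ak2 and Il6r to -0.15 with the other Eif2ak2 probe set. No paired analysis was possible because every animal has its own subject number and no 2 groups share one.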

Other observations

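Array measures other than the beta-actin ratio also moved with some of the 9 genes between animals of one group and cohort (60 relations, permutation p adjusted over them). Cd14 AF087944mRNA_s_at correlated with the array's median log2 signal at r = 0.50 (rho = 0.40, adjusted p = 0.0093, 0.43 without the 2 farthest arrays), at 0.55 in cohort 1 and 0.45 in cohort 2, and with the beta-actin ratio at r = 0.42 (rho = 0.35, adjusted p = 0.0186). With that ratio as a covariate, a setting chosen after seeing the data, this probe set stood at -0.18 ± 0.09 in 24SD, beside -0.24 ± 0.09 without it. C1qb X71127_at correlated with the array median at r = -0.36 (rho = -0.29, adjusted p = 0.035), at -0.59 in cohort 1 and 0.01 in cohort 2. Il6r correlated with the 5′/3′ ratio of the hexokinase control at r = -0.36 (rho = -0.31, adjusted p = 0.035), at -0.50 in cohort 1 and -0.17 in cohort 2. The part of the hexokinase ratio in the Il6r differences was not tested.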
